A study of Mus musculus with 16 samples.

Results

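The 42 genes described here run the cell division cycle, and they were taken from a fixed list of symbols, with no threshold on their values. They were 21 S-phase genes, which license, unwind and copy DNA, 2 D-type cyclins, Ccnd1 and Ccnd2, and 19 mitotic genes, which condense and separate the chromosomes. They are 42 of the 48440 genes listed in each table, and every one of them was found by its symbol in the duodenal, jejunal and ileal tables. The question was whether GFP+ ISCs (intestinal stem cells and progenitors sorted by green fluorescent protein) carried different levels of these transcripts after vertical sleeve gastrectomy (VSG) than after sham surgery, and how far single libraries set the answer.

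Cells commit to division in G1, when D-type and then E-type cyclins activate their kinases, the retinoblastoma proteins are phosphorylated and the E2F transcription factors are released. E2F target genes build the MCM helicase, the polymerases and the nucleotide supply for S phase. Genes of the second wave are driven by B-Myb, FoxM1 and the MuvB complex and peak as cells enter mitosis, where cyclin B with Cdk1, the Aurora and Polo kinases, the spindle checkpoint and the anaphase-promoting complex take over. In the small intestine, Lgr5+ crypt base cells divide throughout life and feed the rapidly dividing progenitors above them, whereas cells on the villus have left the cycle, so these transcripts are known as markers of the crypt.

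RNA-Seq was made from Lgr5EGFP mice, in which EGFP is made from the Lgr5 gene, so the sort takes every cell that still holds the protein. The mice of both groups were female, had 16 weeks of high-fat feeding and underwent VSG or sham surgery; 4 weeks later they were fasted overnight and given a liquid meal 15 minutes before collection, and 6 cm of each segment was dissociated. Cells positive for CD45 (immune), CD31 (endothelial), annexin V or Sytox Blue were gated out before GFP+ cells were collected. The 16 libraries came from 7 mice: 4 VSG and 2 sham libraries of the duodenum, the same 6 mice in the jejunum, and 2 VSG and 2 sham libraries of the ileum. Each library is 1 segment of 1 mouse, replicate numbers name the same mouse in every segment, and p-values measure the spread between mice; no age is given for these mice apart from the range that covers all animals of the study. In bulk RNA, fewer dividing cells and less of a transcript in each dividing cell cannot be told apart.

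Values are normalized counts (reads scaled within each segment by DESeq2, as deposited), so levels are comparable between libraries of 1 segment, and comparisons across segments rest on tables that were normalized separately. Fold changes are VSG minus sham on the scale of log2(normalized count + 1), which understates changes of low genes. They come from limma, a linear model that shares variance information over all genes tested in a segment, and calls needed a mean above 50, a log2 fold change beyond 0.5 in either direction, p under 0.05 and adjusted p under 0.2. All 42 members passed the filter on low values (a mean above 10) in each segment. The libraries held an implied 10.9 to 63.6 M reads, and 1 read was worth 0.586 to 2.07 normalized counts. Lgr5, which defines the sorted cells, had 884 to 6565 normalized counts in the duodenum and 0 to 672 in the ileum. A pair of jejunal libraries stood apart before any cell cycle gene was considered. Jejunal sham replicate 1 was listed at 0 for Lgr5, as was the ileal library of the same mouse, and the other jejunal libraries had 426 to 2053. Jejunal VSG replicate 1 had 196951 normalized counts of Fabp6, the ileal bile acid binding protein, while the remaining jejunal libraries held 15.8 to 313 and the ileal ones 29162 to 208801. The jejunal medians and the counts of members higher after VSG are therefore given with and without each of these libraries. Most genes described in full, the other cell cycle genes and the difference between segments are given also without sham replicate 1.

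The promoters of 4 members are printed to show known promoter words of S-phase and mitotic genes, which many members did not carry. RefSeq promoters on GRCm38.p6 were matched by symbol for 33 of the 42 members (35 entries), and the 250 bases before each annotated start were searched on both strands. The words were the E2F words TTTCCCGC, TTTGGCGC, TTTCGCGC and TTTGCCGC, the CCAAT box bound by NF-Y, and the CHR words TTTGAA and TTCGAA, the element through which MuvB complexes bind late cell cycle genes. An E2F word stood in 6 of 19 S-phase entries (31.6%) and 1 of 16 mitotic promoters (6.25%), against 1.86% of all 32851 entries. A CCAAT box stood in 15 of 16 mitotic promoters (93.8%) and 14 of 19 S-phase entries (73.7%), against 33.8% of all entries, and 11 mitotic promoters (68.8%) held at least 2, against 10.1%. CHR words stood in 8 of 16 mitotic promoters, 3 of 19 S-phase entries (15.8%) and 17.1% of all entries. Each of the 4 genes lies on the minus strand, the sequence reads 5′ to 3′ and ends at the base before the start, and capitals mark the words on either strand. Mcm6 (chr1:128359706-128359955), a subunit of the replicative helicase, holds 3 E2F words, of which those starting 110 and 106 bases before the start overlap, and 2 CCAAT boxes. Cdk1 (chr10:69352913-69353162), the mitotic kinase, holds all 3 kinds of word. Ccnb2 (chr9:70421555-70421804), a mitotic cyclin, has CCAAT boxes 87, 54 and 21 bases before its start, each 33 bases from the next. Top2a (chr11:99024190-99024439), the topoisomerase that untangles sister chromatids, holds 6 CCAAT boxes and 4 CHR words. A match is a run of letters and not a measured binding site.
Mcm6: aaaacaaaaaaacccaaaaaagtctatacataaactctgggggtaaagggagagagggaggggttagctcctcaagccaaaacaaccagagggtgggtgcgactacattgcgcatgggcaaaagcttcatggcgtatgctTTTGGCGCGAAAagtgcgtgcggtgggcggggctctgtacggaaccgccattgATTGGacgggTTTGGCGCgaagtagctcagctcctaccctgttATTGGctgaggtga
Cdk1: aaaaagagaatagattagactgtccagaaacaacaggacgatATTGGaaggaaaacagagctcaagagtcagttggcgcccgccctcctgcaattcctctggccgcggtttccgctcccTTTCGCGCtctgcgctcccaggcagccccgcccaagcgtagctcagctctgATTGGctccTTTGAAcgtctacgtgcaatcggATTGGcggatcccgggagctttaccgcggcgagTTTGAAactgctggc
Ccnb2: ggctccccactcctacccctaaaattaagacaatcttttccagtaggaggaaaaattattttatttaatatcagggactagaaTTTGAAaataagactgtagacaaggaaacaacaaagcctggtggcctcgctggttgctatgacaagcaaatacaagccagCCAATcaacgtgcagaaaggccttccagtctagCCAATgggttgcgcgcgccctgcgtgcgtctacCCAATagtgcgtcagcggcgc
Top2a: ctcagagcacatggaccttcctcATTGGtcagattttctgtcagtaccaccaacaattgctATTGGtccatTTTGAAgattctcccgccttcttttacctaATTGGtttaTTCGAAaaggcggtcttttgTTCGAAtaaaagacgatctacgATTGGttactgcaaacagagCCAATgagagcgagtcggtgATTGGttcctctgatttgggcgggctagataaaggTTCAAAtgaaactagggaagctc

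Cell cycle genes were well covered in the duodenum, and VSG and sham libraries overlapped in most of them. No member was at 0 in any duodenal library, and the mean over the 21 S-phase genes of log2(normalized count + 1) was 11.5, 11.3, 11.0 and 11.1 after VSG (replicates 1 to 4) and 10.8 and 11.3 after sham surgery. For the 19 mitotic genes the library means were 11.4, 11.4, 11.0 and 11.2 after VSG and 10.9 and 11.4 after sham surgery. The VSG means lay between or just above the sham means in both lists, and the groups overlapped. No member was called, beside 4 of 16867 genes in all (0.0237%). An unadjusted p under 0.05 was reached by 0 S-phase and 2 mitotic genes, against 6.27% of all genes tested. S-phase genes had a median log2 fold change of 0.12 (14 higher, 7 lower) and mitotic genes 0.05 (11 higher, 8 lower), beside 0.01 over all genes, of which 50.7% were above 0. Within the 4 VSG libraries the median SD of the log2 values was 0.36 for S-phase and 0.35 for mitotic genes and 0.62 over all genes tested. The members were also the more abundant genes, with VSG library means of 11.0 to 11.5 against 8.08 to 8.34 over all genes tested. Genes of like level were not compared. The same SDs were 0.60, 0.51 and 0.78 in the jejunum, and 1.39, 5.04 and 0.79 in the ileum, where VSG had 2 libraries.

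**Figure D1:**
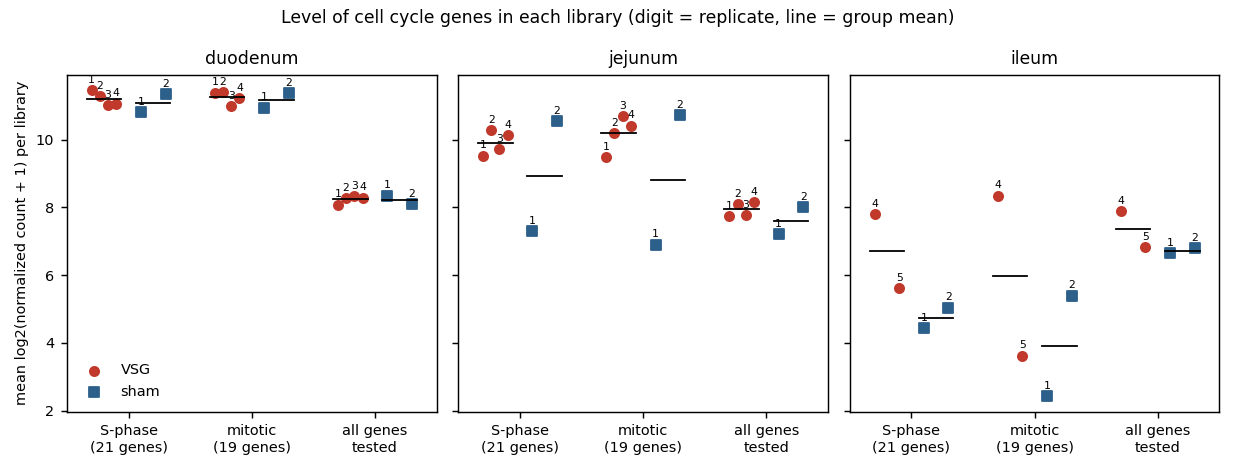
Mean log2(normalized count + 1) per library (y axis) over the S-phase genes, the mitotic genes and all genes tested, for each segment; circles are VSG and squares sham libraries, digits are replicate numbers and lines are group means. Duodenal libraries lie between 10.8 and 11.5 for both lists, jejunal sham replicate 1 lies at 7.30 and 6.90 with all others at 9.49 or above, and ileal libraries spread from 2.42 to 8.35.

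The 6 subunits of the MCM helicase differed in level. Per kilobase of the longest coding transcript, the duodenal means of Mcm6 and Mcm7 were 1834 and 1764 normalized counts, those of Mcm5, Mcm2 and Mcm3 were 1251, 1146 and 1077, and that of Mcm4 was 743, although the subunits assemble in equal number. Mcm2 (ENSMUSG00000002870, chr6:88883474-88898780, minus strand on GRCm38) had 3140, 4425, 3052 and 3596 normalized counts after VSG and 3589 and 5370 after sham surgery. Its groups overlapped and its log2 fold change was -0.32 (SE 0.27, 95% interval -0.93 to 0.29, limma adjusted p = 0.880). Of the 6 MCM genes 2 were higher and 4 lower after VSG, between -0.55 (Mcm3) and 0.27 (Mcm4), and none had a p under 0.05 by limma. The 4 licensing and helicase activation genes were all above 0, from 0.12 for Gins2, a subunit of the GINS complex, to 0.61 for Cdc45, which joins GINS and MCM in the active helicase. Cdc45 had 1159, 839, 783 and 818 normalized counts after VSG and 429 and 790 in the sham libraries (SE 0.44, limma adjusted p = 0.880), so sham replicate 1 alone lay well below the rest.

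At the replication fork, Pcna, the sliding clamp (ENSMUSG00000027342, chr2:132249162-132253314, minus strand), had 10382, 8932, 6989 and 9048 normalized counts after VSG and 6860 and 9871 after sham surgery. The groups covered the same range, with a log2 fold change of 0.09 (SE 0.25, 95% interval -0.46 to 0.64, limma adjusted p = 0.952), and without sham replicate 1 it was -0.17. Pola1, the catalytic subunit of DNA polymerase alpha, had 1991, 1814, 1925 and 1518 after VSG and 460 and 2069 after sham surgery. Its log2 fold change of 0.89 (SE 0.53, limma adjusted p = 0.874) rested on sham replicate 1, since it was -0.20 without that library and 1.97 without sham replicate 2. In the latter fit, of 4 VSG libraries against 1 sham library that adds nothing to the spread, it passed the thresholds of a call (limma adjusted p = 0.138). Rrm1, the large subunit of ribonucleotide reductase, had 6596, 3861, 5981 and 4506 after VSG, all above the 3281 and 3760 of the sham libraries (log2 fold change 0.54, SE 0.27, limma adjusted p = 0.846). Among the other nucleotide supply genes, Rrm2 was at 0.53, Dut, which removes dUTP, at 0.16, and Tyms, which makes thymidylate, at -0.25, none with a p under 0.05 by limma. Uhrf1, which recruits the maintenance DNA methyltransferase to hemimethylated DNA, was at -0.50, and the E-type cyclins Ccne1 and Ccne2 were at 0.10 and -0.08. The remaining fork genes, Rfc2 of the clamp loader and Prim1, the primase that starts each Okazaki fragment, were at 0.26 and 0.11, so the 4 fork genes were all above 0, and 1 of 4 was without sham replicate 1.

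The D-type cyclins behaved unlike each other in the duodenum. Ccnd1 (ENSMUSG00000070348, chr7:144929931-144939925, minus strand) had 6087, 4304, 5382 and 3900 normalized counts after VSG and 3790 and 3403 after sham surgery, so that the VSG values exceeded the sham values by a small margin (log2 fold change 0.43, SE 0.25, limma adjusted p = 0.874). Ccnd2 (ENSMUSG00000000184, chr6:127125162-127152193, minus strand) had 4839, 24445, 4643 and 6655 after VSG and 13716 and 24093 after sham surgery. VSG replicate 2 matched the higher sham library and the other 3 VSG libraries lay below both (log2 fold change -1.22, SE 0.61, 95% interval -2.59 to 0.14, limma adjusted p = 0.840).

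The pair of mitotic genes with a p under 0.05 in the duodenum pointed in opposite directions. Tpx2, the spindle assembly factor that activates Aurora A (ENSMUSG00000027469, chr2:152847964-152895321, plus strand), had 4072, 3111, 1358 and 2530 normalized counts after VSG and 795 and 1157 after sham surgery. Its lowest VSG value exceeded its highest sham value, with a log2 fold change of 1.42 (SE 0.44, 95% interval 0.44 to 2.40, limma adjusted p = 0.555). Cdc20, the activator of the anaphase-promoting complex (ENSMUSG00000006398, chr4:118432901-118437352, minus strand), had 2411, 1783, 2295 and 2745 after VSG and 3084 and 4303 after sham surgery. Here the VSG values were the lower ones without overlap, at -0.68 (SE 0.28, limma adjusted p = 0.761). Cenpe, a kinetochore motor, was placed likewise, with 2036, 2301, 1883 and 1624 against 2969 and 2625 (log2 fold change -0.52, SE 0.27, limma adjusted p = 0.849). The exact two-sided permutation p of Tpx2, Cdc20 and Cenpe was 0.0667, the smallest that 4 libraries against 2 allow. Because their groups did not overlap, leaving out any 1 library could not change their sign, so an unchanged sign adds no support. In all, the VSG libraries lay above both sham libraries in 3 members and below both in 2, against 6.44% and 8.01% of all genes tested (14.4% in either direction).

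The mitotic genes most used as proliferation markers overlapped between the surgeries. Mki67, whose product coats mitotic chromosomes (ENSMUSG00000031004, chr7:135689784-135716361, minus strand), had 13916, 15475, 10858 and 9121 normalized counts after VSG and 8666 and 11529 after sham surgery (log2 fold change 0.27, SE 0.26, 95% interval -0.32 to 0.87, limma adjusted p = 0.882). Top2a (ENSMUSG00000020914, chr11:98992943-99024189, minus strand) had 15444, 11880, 7844 and 8539 against 7762 and 13595 (0.04, SE 0.33, interval -0.71 to 0.78, limma adjusted p = 0.990). Ccnb1, cyclin B1 (ENSMUSG00000041431, chr13:100778650-100786570, minus strand), had 1892, 1982, 1394 and 2271 against 2324 and 1514 (-0.01, SE 0.32, interval -0.74 to 0.71, limma adjusted p = 0.995). In each of these the groups overlapped, and for Mki67 VSG replicates 1 and 2 lay above both sham libraries. The intervals reached down to -0.93 in Mcm2 and up to 0.87 in Mki67 on the log2 scale, so equality was not shown. The other mitotic kinases and cyclins (Ccna2, Ccnb2, Cdk1, Plk1, Aurka and Aurkb) ran from -0.51 to 0.11. Birc5, the survivin subunit of the chromosomal passenger complex, was at 0.05, the spindle motor Kif11 at 0.11, the microtubule binding Hmmr at -0.22, and Ube2c, the ubiquitin carrier of the anaphase-promoting complex, at 0.05. Bub1 and Bub1b, kinases of the spindle checkpoint, were at 0.40 and 0.69, and Cenpf at 1.06, with a p above 0.05 by limma in each.

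Sham replicate 1 was the lowest duodenal library in 18 of the 42 members (42.9%), among them 11 of 19 mitotic genes, against 12.2% of all genes tested. Sham replicate 2 was the highest in 12 members, and VSG replicate 1 in 16. Leaving out sham replicate 1 moved the medians to -0.04 for S-phase and -0.26 for mitotic genes, and leaving out sham replicate 2 moved them to 0.28 and 0.42, so the sign of the small duodenal median was set by which sham mouse was kept. Enterocyte markers stood beside this: their summed level was 1211216 in sham replicate 1 and 806731 in sham replicate 2 against 359674 to 729115 after VSG, all 10 markers had lower means after VSG, and stem cell markers summed to 102845 and 107823 against 79750 to 161772. Tuft cell markers summed to 10011 and 4010 after sham surgery and 13078 to 27101 after VSG, with all 6 higher. Immune markers summed to 30442 and 1921 in sham replicates 1 and 2 and 22609 to 57582 after VSG, with all 4 that were tested higher. The part of these markers in the cell cycle values was not tested.

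Of 109 other cell cycle genes tested in the duodenum, 55 were higher after VSG, and 5 higher and 1 lower genes had a p under 0.05 by limma, against 2.79% and 3.48% of all genes tested. Cdc25b, a phosphatase that activates Cdk1, had 1555, 1481, 1928 and 1510 normalized counts after VSG and 777 and 593 after sham surgery (log2 fold change 1.25, SE 0.33, limma adjusted p = 0.485). Timeless, of the fork protection complex, lay the other way, with 865, 1013, 663 and 549 against 1666 and 1952 (-1.26, limma adjusted p = 0.555). Dbf4, the activating subunit of the Cdc7 kinase, was at 1.05, Cks1b, a kinase subunit, at 1.82, and Orc4, of the origin recognition complex, at 0.81, with a limma adjusted p of 0.645 to 0.725. In each of these 5 genes the groups did not overlap, and none was called. They were named for a small p, which favours groups without overlap. Of all 109, the VSG libraries lay above both sham libraries in 9 and below both in 4. The shares over all genes tested were 6.44% and 8.01% (14.4% in either direction).

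**Figure D2:**
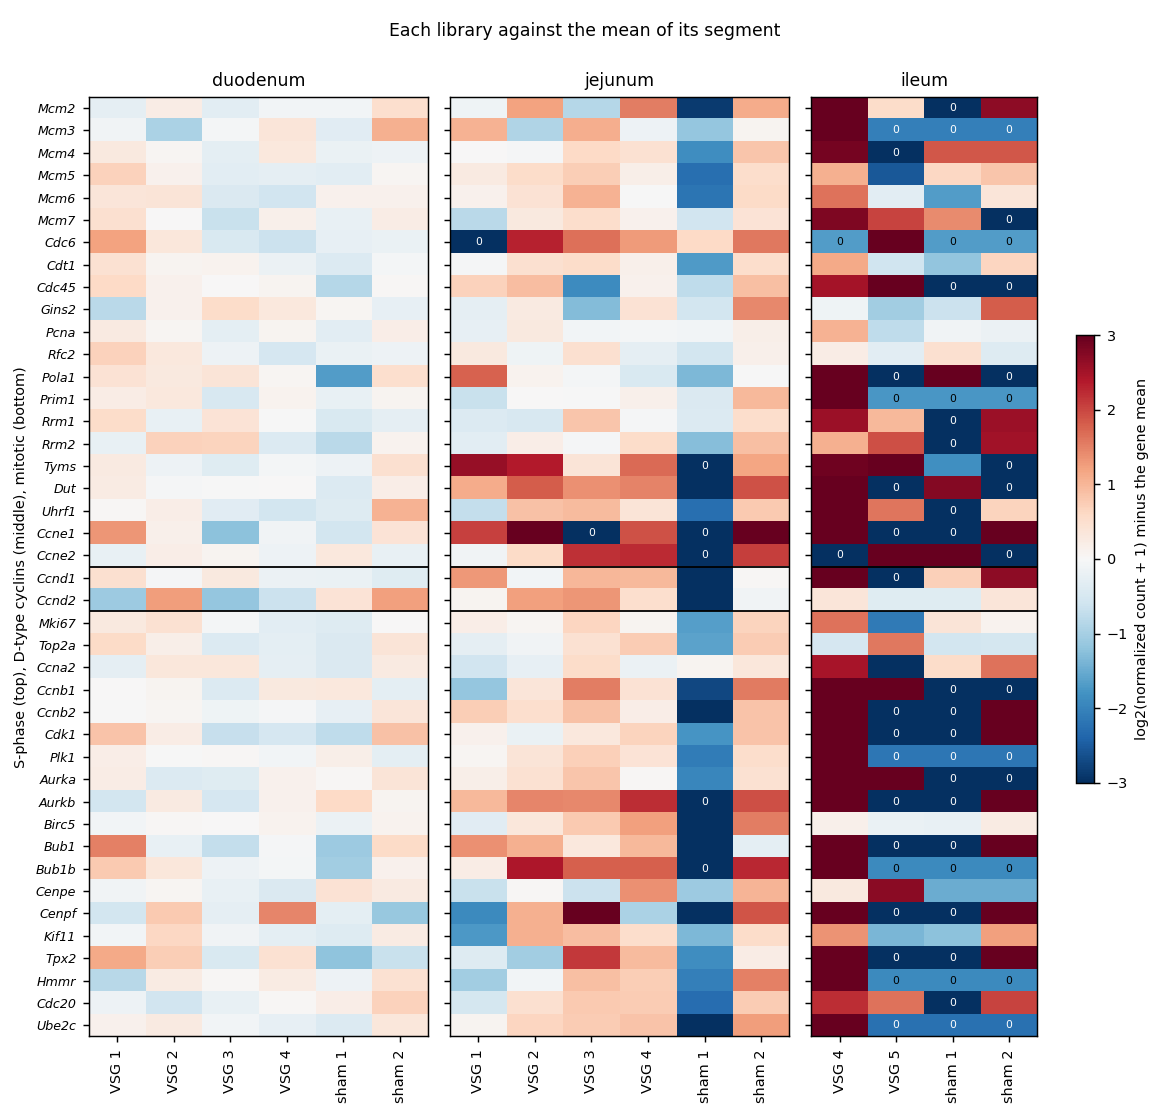
Each member (rows) in each library (columns), as log2(normalized count + 1) minus the gene's mean over its segment, in log2 units from -3 (blue) to 3 (red), larger deviations being drawn at those limits; 0 marks a value listed at 0. The duodenum is pale throughout, the jejunum has 1 blue column, sham replicate 1, which was lowest in 32 of 42 members, and ileal VSG replicate 4 was highest in 26 of 42.

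In the jejunum, 35 of the 42 members had higher means after VSG than after sham surgery, and this rested on 1 of the 2 sham libraries. The S-phase mean per library was 9.53, 10.3, 9.71 and 10.1 on the log2 scale after VSG, and 7.30 and 10.5 in sham replicates 1 and 2. The mitotic mean was 9.49, 10.2, 10.7 and 10.4 after VSG, and 6.90 and 10.7 in the sham replicates. Sham replicate 1 was thus far below all VSG libraries in both lists. Sham replicate 2 was above them in the S-phase mean and about level with VSG replicate 3 in the mitotic mean (10.716 and 10.694). Summed mitotic counts gave the other order for that pair, 39223 in sham replicate 2 and 41860 in VSG replicate 3. S-phase genes had a median log2 fold change of 0.82 (15 higher, 6 lower) and mitotic genes 1.13 (18 higher, 1 lower), beside 0.11 over all 15857 genes tested, of which 55.0% were above 0. No member was called, beside 2 genes in all (0.0126%), and 4 members had a p under 0.05 by limma, against 6.04% of all genes.

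Sham replicate 1 was the lowest jejunal library in 32 of 42 members (76.2%), in 13 of 21 S-phase and 17 of 19 mitotic genes and both D-type cyclins, against 23.9% of all genes tested. It was the highest library in 0 members, while it was the highest in 23.4% of all genes. Tyms, Ccne1, Ccne2, Aurkb and Bub1b were listed at 0 there, and Dut had 1.16, the worth of about 1 read. Sham replicate 2 was the lowest library in 0 members and the highest in 12. Against sham replicate 1 alone, 40 of 42 members were higher after VSG (57.5% of all genes), with medians of 1.70 for S-phase and 2.48 for mitotic genes. Against sham replicate 2 alone, 7 of 42 were higher (48.9% of all genes), with medians of -0.46 and -0.44. The 7 were Mcm3, Pola1, Tyms, Ccnd1, Ccnd2, Bub1 and Tpx2, at 0.19 to 1.22. Leaving out VSG replicate 1 alone gave medians of 0.65 and 1.36, with 37 of 42 members higher and 3 with a p under 0.05. Leaving out VSG replicate 1 together with sham replicate 1, an alternative chosen after seeing the data, gave medians of -0.14 and -0.33. The comparisons with 1 sham library assume that it varies as the VSG libraries do, and calls in them are not counted here.

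**Figure D3:**
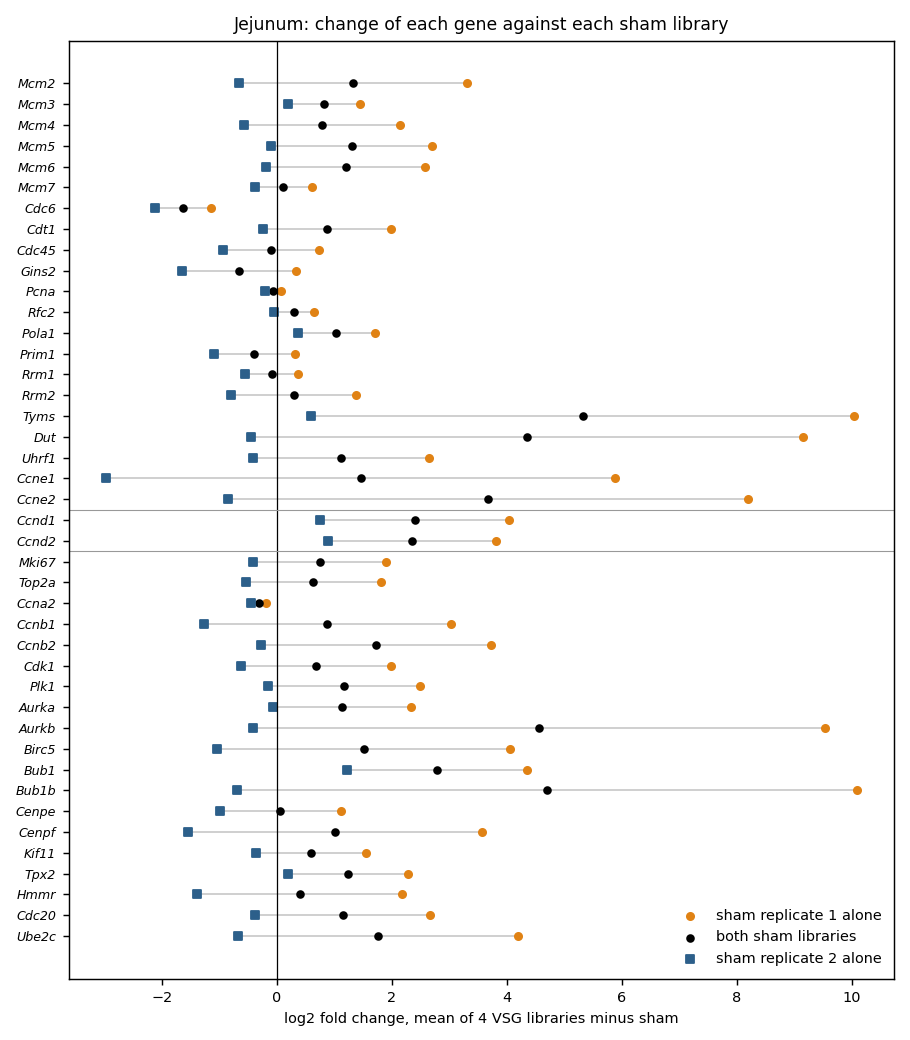
Jejunal log2 fold change (x axis) of each member (rows) as the mean of 4 VSG libraries minus the mean of both sham libraries (black), sham replicate 1 alone (orange) or sham replicate 2 alone (blue squares). Most blue squares lie left of 0 (35 of 42) and most orange points right of it (40 of 42); Pcna and Ccna2 barely move. Tyms, Ccne1, Ccne2, Aurkb and Bub1b are at 0 in sham replicate 1, so their black and orange points depend on the pseudocount. Ccne1 is also at 0 in VSG replicate 3 and Cdc6 in VSG replicate 1, so their blue squares depend on it as well.

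The low cell cycle level in jejunal sham replicate 1 came with other values that set that library apart. Its 8 stem cell markers summed to 15789 normalized counts against 45411 to 63924 in the other jejunal libraries, with 6 of 8 above 0, and Lgr5 and Tnfrsf19 at 0. Its 10 enterocyte markers summed to 2395494 against 587266 to 1056689. Paneth cell markers summed to 39724 against 105888 to 283823, and tuft cell markers to 1201 against 4662 to 18162, with 3 of 6 above 0. The library held an implied 42.2 M reads, within the 22.2 to 57.8 M of the others, its normalized counts totalled 47.1 M against 33.5 to 34.5 M, and 24.8% of genes tested were at 0 against 9.66% to 18.3%. The part of these values in the cell cycle results was not tested. All 10 enterocyte markers had lower means after VSG with both sham libraries, and 7 of 10 without sham replicate 1.

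Jejunal Mcm2 had 1257, 3150, 764 and 3994 normalized counts after VSG and 187 and 2948 after sham surgery. The VSG libraries spanned a wide range with sham replicate 2 inside it (log2 fold change 1.32, SE 1.01, limma adjusted p = 0.774; -0.66 without sham replicate 1). All 6 MCM genes were above 0, from 0.11 for Mcm7 to 1.32 for Mcm2, and 1 of 6 remained above 0 without sham replicate 1. Mcm5 had 1996, 2437, 2778 and 1878 after VSG and 345 and 2398 after sham surgery, so sham replicate 2 lay among the VSG libraries (1.30, SE 0.66, limma adjusted p = 0.760; -0.10 without sham replicate 1). Pcna did not follow and had 4089, 5920, 4522 and 4586 against 4518 and 5470, with both sham libraries inside the VSG range. Its log2 fold change was -0.07 (SE 0.31, 95% interval -0.76 to 0.62, limma adjusted p = 0.953), and it was 0.04 after quantile normalization and 0.16 with every library scaled to the same total. The latter scaling moved the median of all genes from 0.11 to 0.34, the S-phase median to 1.04 and the mitotic median to 1.36, and quantile normalization moved them to 0.03, 0.62 and 0.83. Ccna2, cyclin A2, also did not follow, with 1925 in sham replicate 1, between VSG libraries at 1219 to 2659.

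The nucleotide supply genes held the largest fitted S-phase differences in the jejunum. Tyms (ENSMUSG00000025747, chr5:30058202-30073617, minus strand) had 1903, 1608, 404 and 1000 normalized counts after VSG and 0 and 703 after sham surgery. VSG replicate 3 lay below sham replicate 2, and the log2 fold change of 5.32 (SE 2.05, limma adjusted p = 0.760) was 3.66 with a pseudocount of 10 and 0.59 without sham replicate 1. Dut had 971, 1593, 1153 and 1259 against 1.16 and 1680 (4.34, SE 1.97, limma adjusted p = 0.760), and was at -0.46 without sham replicate 1. Rrm1 and Rrm2 were at -0.09 and 0.29. Uhrf1 was at 1.11, and Ccne1 and Ccne2, which had 0 in sham replicate 1, at 1.45 and 3.66, and all 3 were below 0 without that library. Ccne1 was also listed at 0 in VSG replicate 3. Of the fork genes Pola1 was at 1.03, Rfc2 at 0.29 and Prim1 at -0.40. A licensing gene, Cdc6, was listed at 0 in VSG replicate 1 and had 852, 540 and 412 in the other VSG libraries and 261 and 512 after sham surgery. Cdt1, its partner in loading the helicase, was at 0.87, Cdc45 at -0.10 and Gins2 at -0.66.

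Both D-type cyclins were among the 7 members that were higher against either jejunal sham library. Ccnd2 had 7518, 16601, 17626 and 9947 normalized counts after VSG and 867 and 6564 after sham surgery. The groups did not overlap, with a log2 fold change of 2.35 (SE 0.69, 95% interval 0.81 to 3.88, limma adjusted p = 0.760), 0.89 without sham replicate 1 and 3.81 without sham replicate 2. Ccnd1 had 6364, 2442, 5169 and 5024 after VSG and 272 and 2655 after sham surgery, so VSG replicate 2 lay just below sham replicate 2 (2.40, SE 0.77, limma adjusted p = 0.760; 0.75 without sham replicate 1). Both cyclins sense growth signals in G1 and are themselves targets of Wnt and growth factor pathways in many tissues. Neither had a p under 0.05 by limma once sham replicate 1 was left out.

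Of the mitotic genes, Bub1 (ENSMUSG00000027379, chr2:127801122-127831865, minus strand) was the 1 member with all jejunal VSG libraries above both sham libraries. It had 1102, 897, 528 and 839 normalized counts after VSG and 38.8 and 349 after sham surgery (log2 fold change 2.79, SE 0.93, 95% interval 0.72 to 4.86, limma adjusted p = 0.760; 1.22 without sham replicate 1). The exact two-sided permutation p of Bub1 and of Ccnd2 was 0.0667, the smallest possible, and with them 2 of 42 members had all VSG libraries above sham and 0 below, against 6.59% and 6.21% of all genes tested (12.8% in either direction). Aurkb, the kinase of the chromosomal passenger complex, had 502, 718, 700 and 1193 after VSG and 0 and 985 after sham surgery (4.56, SE 2.13, limma adjusted p = 0.760). Bub1b had 429, 1985, 1279 and 1275 after VSG and 0 and 1751 after sham surgery (4.70, SE 2.25, limma adjusted p = 0.760). In both, sham replicate 2 lay inside the VSG range, the size of the fitted difference depended on a 0 (2.91 and 3.05 with a pseudocount of 10), and it was -0.41 and -0.69 without sham replicate 1.

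Mki67 had 5028, 4593, 6923 and 4632 normalized counts in the jejunum after VSG and 1402 and 6949 after sham surgery. The latter value was above every VSG library, and the log2 fold change of 0.74 (SE 0.55, 95% interval -0.48 to 1.96, limma adjusted p = 0.762) became -0.41 without sham replicate 1. Top2a had 2820, 3128, 4662 and 5722 against 1121 and 5709, so that sham replicate 2 lay just under the highest VSG library (0.63, SE 0.59, limma adjusted p = 0.800; -0.54 without sham replicate 1). Ccnb1 had 357, 1018, 2293 and 1083 against 119 and 2351 (0.88, SE 1.09, limma adjusted p = 0.850; -1.27 without sham replicate 1). Of 19 mitotic genes, 17 were lower after VSG than in sham replicate 2, with Bub1 and Tpx2 as the exceptions. The other mitotic genes ran from -0.32 for Ccna2 and 0.06 for Cenpe to 1.76 for Ube2c. Within VSG, Cenpf ran from 158 in replicate 1 to 5273 in replicate 3, and Tpx2 from 480 in replicate 2 to 4322 in replicate 3.

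**Figure D4:**
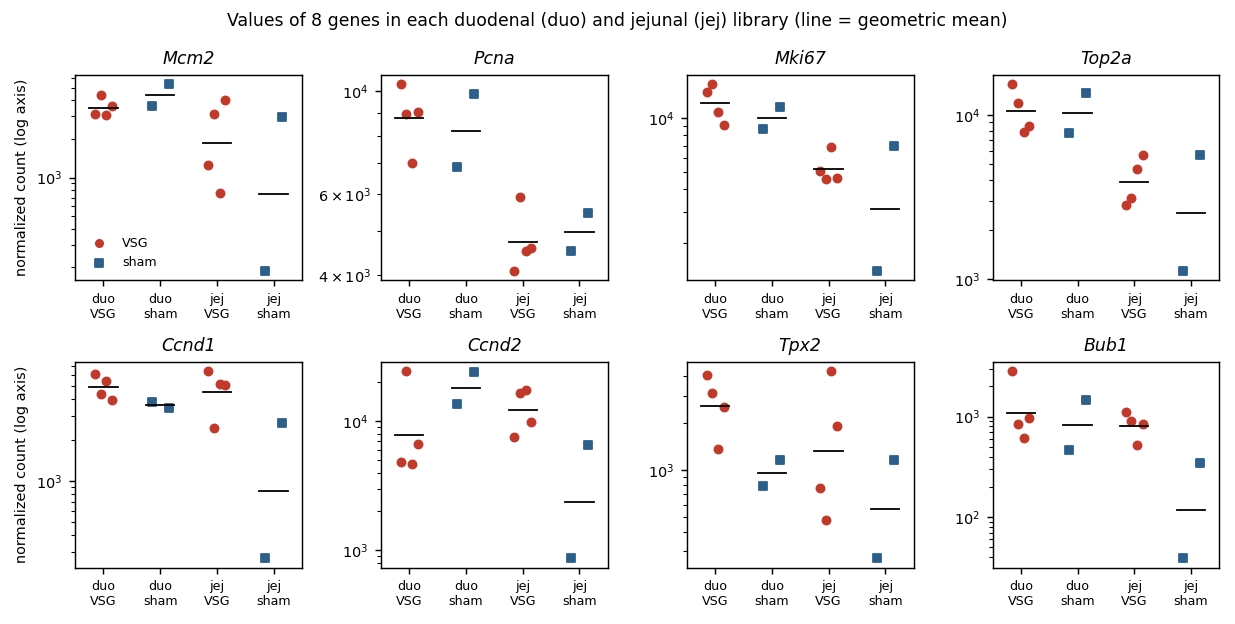
Normalized counts (log axis) of 8 members in each duodenal and jejunal library; circles are VSG and squares sham libraries, and lines are geometric means. Duodenal Tpx2 and jejunal Ccnd2 and Bub1 have every VSG library above both sham libraries; in the jejunum sham replicate 1 is the lowest library in each gene but Pcna. The segments were normalized separately.

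Of 109 other cell cycle genes tested in the jejunum, 79 were higher after VSG, and 32 without sham replicate 1. A p under 0.05 by limma was reached by 7 higher and 0 lower genes, against 3.63% and 2.4% of all genes tested. Ect2, which directs cytokinesis, had 1312, 572, 1584 and 1235 normalized counts after VSG and 160 and 469 after sham surgery (log2 fold change 2.00, limma adjusted p = 0.760). Bub3, a checkpoint protein that holds Bub1 at kinetochores, had 2366, 2869, 2283 and 2093 against 1206 and 1300, and there the sham libraries lay close together (0.93, SE 0.36, limma adjusted p = 0.760; 0.88 without sham replicate 1). Foxm1, the transcription factor of the mitotic wave, was at 1.87 (0.64 without sham replicate 1), Cdc25a, a phosphatase acting at the start of S phase, at 0.94 (1.47) and Ncapg, a condensin subunit, at 4.97 (0.44), with 0 in sham replicate 1. Ect2, Bub3, Foxm1 and Cdc25a had all VSG libraries above both sham libraries, and none of these genes was called. They were named for a small p, which favours groups without overlap. Of all 109, the VSG libraries lay above both sham libraries in 7 and below both in 3. The shares over all genes tested were 6.59% and 6.21% (12.8% in either direction). The 6 CDK inhibitors tested were mostly lower, 2 of 6 above 0, with a median of -0.64. The median was -0.17 without sham replicate 1, and 0 of them had a p under 0.05 by limma.

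**Figure D5:**
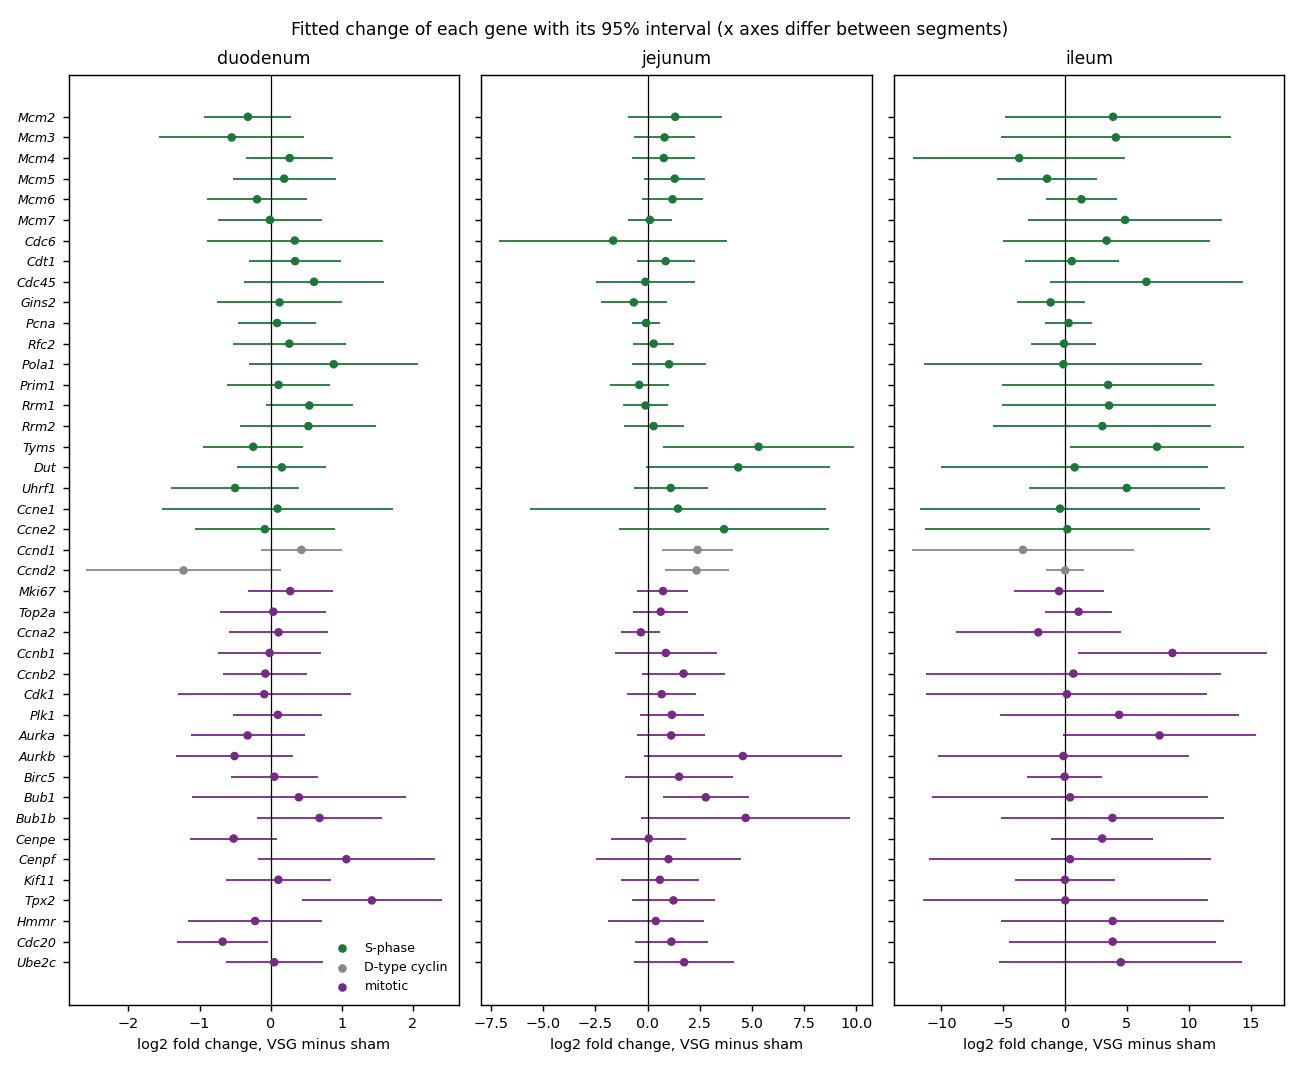
Log2 fold change of each member, VSG minus sham, as fitted by limma (points) with its 95% interval (lines), by segment; the x axes differ in range. In the duodenum the intervals of Tpx2 and Cdc20 miss 0, in the jejunum those of Tyms, Ccnd1, Ccnd2 and Bub1, and in the ileum those of Tyms and Ccnb1, whose size depends on the pseudocount because sham libraries are at 0.

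Because the duodenal and jejunal libraries came from the same 6 mice, the difference between segments was tested on each mouse's jejunal minus duodenal log2 value. Of 42 members, 32 had a larger VSG minus sham difference in the jejunum than in the duodenum, beside 54.6% of all 14718 genes tested. Without sham replicate 1 it was 12 of 42, beside 47.1% of all genes, with a median over the members of -0.30 in place of 0.83. No gene was called (0 of 14718, 0.0%), limma without a variance trend called 4, and 622 genes (4.23%), 2 members among them, had an unadjusted p under 0.05 by limma. For Ccnd2, jejunum minus duodenum was 0.64, -0.56, 1.92 and 0.58 in the VSG mice and -3.98 and -1.88 in the sham mice. Both sham mice lay below every VSG mouse, a difference of 3.57 (SE 0.92, 95% interval 1.30 to 5.85, limma adjusted p = 0.985). For Bub1 the values were -1.36, 0.08, -0.20 and -0.20 after VSG and -3.54 and -2.08 after sham surgery, again without overlap, a difference of 2.39 (SE 0.73, 95% interval 0.59 to 4.20, limma adjusted p = 0.985). The exact two-sided permutation p was 0.0667 for both, the smallest possible, and without sham replicate 1 the differences were 2.52 and 1.66. Tyms and Mcm3 also had both sham mice below every VSG mouse. The share of genes without overlap was not counted over all genes, so the separation is not evidence about these members.

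In the ileum the cell cycle genes were sparse, and the medians turned on single libraries. Of 42 members, 22 were listed at 0 in sham replicate 1, 15 in sham replicate 2, 17 in VSG replicate 5 and 2 in VSG replicate 4 (29.1%, 27.7%, 26.5% and 11.2% of all genes tested). The S-phase mean per library on the log2 scale was 7.79 and 5.61 after VSG (replicates 4 and 5) and 4.44 and 5.04 after sham surgery, and the mitotic mean was 8.35 and 3.63 against 2.42 and 5.40. VSG libraries lay above sham in the S-phase mean, whereas VSG replicate 5 lay between the sham libraries in the mitotic mean. Summed normalized counts gave another order. There VSG replicate 5 lay between the sham libraries for S-phase genes (4928 against 4324 and 7771) and above both for mitotic genes (3930 against 1548 and 3680). Medians of the fitted log2 fold changes were 1.31 for S-phase genes (15 higher, 6 lower) and 0.67 for mitotic genes (14 higher, 5 lower), beside 0.24 over all 13853 genes tested, of which 57.0% were above 0. They changed little with the pseudocount (1.29 and 0.65 with 10), were 0.32 and 0.47 after quantile normalization, which put the median of all genes at 0.04, and were 3.44 and 4.14 without VSG replicate 5 and 0.33 and -2.37 without VSG replicate 4. VSG replicate 4 was the highest library in 26 of 42 members, against 27.9% of all genes tested. Its stem cell markers summed to 19641 against 5767 to 13543 in the other 3 libraries, its Paneth cell markers to 85882 against 2593 to 26368, and its enterocyte markers to 428136 against 750594 to 868825, and their part in this was not tested.

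No member and no other gene was called in the ileum by limma (0 of 13853, 0.0%), with 455 genes and 2 members at an unadjusted p under 0.05 (3.28% of all genes), and limma without a variance trend called 463 genes. Among the 463 were 3 members, Ccnb1, Cdc45 and Aurka (limma adjusted p = 0.113, 0.142 and 0.113), each at 0 in both sham libraries. In the fits without VSG replicate 4 or 5, 1 VSG library faces 2 sham libraries and the sham libraries alone give the spread. Calls in those fits are not counted here, and 36 members passed the filter without replicate 4 and 41 without replicate 5. Both VSG libraries lay above both sham libraries in 8 members, Mcm7, Cdc45, Tyms, Uhrf1, Top2a, Ccnb1, Aurka and Cenpe, and below in 0, against 17.0% and 11.6% of all genes tested (28.6% in either direction). The smallest exact permutation p of 2 libraries against 2 is 0.333. Ccnb1 had 401 and 411 normalized counts after VSG and was listed at 0 in both sham libraries, so no fold is given (limma adjusted p = 0.736). Tyms had 359 and 1090 after VSG and 12.4 and 0 after sham surgery (limma adjusted p = 0.736). Cdc45, with 53.8 and 162, and Aurka, which builds the spindle poles, with 133 and 290, were likewise listed at 0 in both sham libraries (limma adjusted p = 0.736 for both). In sham replicate 1, 9 of 21 S-phase and 13 of 19 mitotic genes were listed at 0. Uhrf1 had 510 and 151 against 0 and 77.4, and Cenpe 210 and 1113 against 60.0 and 59.9 (limma adjusted p = 0.736 for both).

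The ileal proliferation markers gave no single direction. Mki67 had 1372 and 102 normalized counts after VSG and 585 and 482 after sham surgery (log2 fold change -0.50, SE 1.46, limma adjusted p = 0.942), so the VSG libraries lay on either side of sham. Top2a had 352 and 1490 against 340 and 343 (1.08, SE 1.08, limma adjusted p = 0.736). Mcm2 had 946 and 137 against 0 and 608 (limma adjusted p = 0.736), and Pcna 3439 and 997 against 1563 and 1489 (0.28, SE 0.75, limma adjusted p = 0.934). Ccnd1 had 1210 and 0 against 186 and 733 (limma adjusted p = 0.736). Ccnd2 was the most even, with 1965 and 1200 against 1194 and 1970 (0.00, SE 0.62, 95% interval -1.56 to 1.56). Of 106 other cell cycle genes tested, 67 were higher after VSG and 3 had a p under 0.05 by limma, all higher, against 2.09% of all genes higher and 1.19% lower. These were Orc2, of the origin recognition complex, with 279 and 733, Cks2, a kinase subunit, with 468 and 171, and Rpa2, of the single-strand binding complex, with 86.2 and 917, each listed at 0 in both sham libraries.

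S-phase and mitotic transcripts kept a near constant proportion in the duodenum and not farther down. The summed mitotic over the summed S-phase normalized counts was 0.920, 1.04, 0.917 and 0.951 in the duodenum after VSG and 0.920 and 0.911 after sham surgery. In the jejunum the quotient was 0.707, 0.764, 1.15 and 0.999 after VSG and 0.522 and 0.982 after sham surgery. In the ileum it was 0.629 and 0.798 after VSG and 0.358 and 0.474 after sham surgery. The lowest quotient of the jejunum was in sham replicate 1, where both lists were low and the mitotic genes lower still, and the ileal VSG libraries lay above both sham libraries. These sums are carried by the most abundant genes, Mki67 and Top2a among them, and no test was made on them.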

How the data were processed

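RNA-Seq of GFP+ ISCs from 16 libraries was analysed from the authors' deposited tables of normalized counts, a signal unit with 1 table per segment. The submitters' processing notes name STAR 2.5.3a, Salmon 0.6.0 and DESeq2, and the build mm10. Libraries that the authors excluded for low mapping were not used here. Whole reads could not be recovered for nearly all genes, so no count model was fitted. Columns of the authors' own comparisons (fold changes and p-values) were not used.

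Values were tested as log2(normalized count + 1) with limma 3.58.1 (R 4.3.3, empirical Bayes with a variance trend) in each segment separately, over genes with a mean above 10, with Benjamini-Hochberg adjustment over all of them. Calls needed a mean above 50, a log2 fold change beyond 0.5 in either direction, p under 0.05 and adjusted p under 0.2. Exact two-sided permutation tests were run on single genes. Differences between segments were tested on the jejunal minus duodenal log2 value of each mouse. Depth was estimated by taking the most frequent low value of a library as the worth of 1 read, so the read totals are approximate and speak to counting error only. Summaries used pandas 2.3.3, scipy 1.17.1 and numpy 2.4.6 in Python 3.11.15, plots were drawn with matplotlib 3.10.9, and the limma fit within each segment was tested on simulated data.

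The members and lists were chosen with earlier results of these data known. Values of every library are given for Mcm2, Pcna, Mki67, Top2a, Ccnb1, Ccnd1 and Ccnd2 and for the 3 S-phase and 3 mitotic members with the smallest p in each segment, and up to 5 of the other cell cycle genes with p under 0.05 are named in order of p. Of 48440 identifiers, 48058 matched GENCODE M21 (GRCm38), which gave positions and lengths. Promoters were taken from RefSeq, GRCm38.p6. Alternatives were the pseudocount, the filter, quantile normalization, a common total per library, limma without trend, a stricter adjusted p (0.05), the replicate number as a block, and the omission of each library in turn.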

Additional observations from a re-analysis of the deposited data

Results flagged for a closer look

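Among 88 groups of 4 VSG libraries (1 gene or 1 list mean in 1 segment each), 3 held a library farther from the others than Dixon's 95% limit, and chance alone gives about 1 in 20. Dut, which keeps uracil out of DNA, had 2790 normalized counts in duodenal VSG replicate 1 and 2323 to 2389 in the other VSG libraries. Cdc6, which loads the MCM helicase, was listed at 0 in jejunal VSG replicate 1, and Ccne1, cyclin E1, at 0 in jejunal VSG replicate 3. An exact 0 can be a failed estimate, and these values were kept in every fit.

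Of the 42 members, 2 differed between segments in their VSG minus sham difference at an unadjusted p under 0.05 by limma. Ccnd2 differed by 3.57 on the log2 scale (limma adjusted p = 0.985), with jejunum minus duodenum higher in 4 of 4 VSG mice than in both sham mice. Bub1 differed by 2.39 (limma adjusted p = 0.985), again in 4 of 4. Neither passed the correction over all genes. Tyms and Mcm3 were likewise without overlap between VSG and sham mice, and the share over all genes was not counted.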

How the results depend on the processing

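Leaving out 1 library moved the count of genes called from 4 to between 0 and 259 in the duodenum (259 without sham replicate 1, 47 without sham replicate 2, 12 without VSG replicate 1), from 2 to between 1 and 2710 in the jejunum, from 0 to between 0 and 631 in the ileum (631 without VSG replicate 5, 625 without VSG replicate 4), and from 0 to between 0 and 812 for jejunum minus duodenum (812 without sham replicate 2). Members with p under 0.05 ranged from 1 to 3 in the duodenum, 0 to 25 in the jejunum and 4 to 10 in the ileum. The S-phase median ranged from -0.46 to 1.70 in the jejunum and 0.33 to 3.44 in the ileum, and the mitotic median from -0.26 to 0.42, -0.44 to 2.48 and -2.37 to 4.14 in the 3 segments. In the duodenum 0 genes were called with pseudocount 0.5, filters of a mean above 0 or 50, a common total or adjusted p under 0.05, 10 with pseudocount 10 and 43 without trend, and 1 member had p under 0.05 with quantile normalization, a common total or no trend. In the jejunum 61 genes were called without trend (2 members with p under 0.05), 1 at adjusted p under 0.05, and 48 with VSG and sham replicate 1 both left out (1 member, mitotic median -0.33). In the ileum 3 genes were called with pseudocount 10 and 463 without trend, and 1, 0 and 4 members had p under 0.05 with a mean above 0, quantile normalization and no trend. For jejunum minus duodenum, 4 genes were called without trend. Where a fit leaves 1 library in a group, that library is assumed to vary like those of the other group. The cause of these moves was not tested.

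Directions of single members turned mainly with 1 library. Leave-one-out log2 fold changes ranged in the duodenum from -0.17 to 0.35 for Pcna, from -0.37 to 0.44 for Top2a, from -0.32 to 0.29 for Ccnb1 and from -0.20 to 1.97 for Pola1, in the jejunum from -0.66 to 3.31 for Mcm2, from -0.21 to 0.067 for Pcna, from -0.41 to 1.90 for Mki67, from -0.54 to 1.80 for Top2a, from -1.27 to 3.02 for Ccnb1, from -0.46 to 9.15 for Dut, from -0.10 to 2.70 for Mcm5, from -0.41 to 9.54 for Aurkb and from -0.69 to 10.09 for Bub1b, and in the ileum from -0.75 to 8.50 for Mcm2, from -0.61 to 1.17 for Pcna, from -2.37 to 1.37 for Mki67, from -8.53 to 1.71 for Ccnd1 and from -0.36 to 0.36 for Ccnd2. The extremes for jejunal Dut, Aurkb and Bub1b and for ileal Mcm2 and Ccnd1 depend on the pseudocount and give no usable fold. Each rests on a library listed at 0 or, for Dut, at the worth of about 1 read. With VSG and sham replicate 1 both left out of the jejunum, Mcm2 was at -0.47, Mcm5 -0.039, Dut -0.34, Mki67 -0.40, Top2a -0.39, Ccnb1 -0.79, Aurkb -0.23 and Bub1b -0.24. Duodenal Ccnb1 was 0.066 with a common total, and jejunal Pcna 0.035 with quantile normalization and 0.16 with a common total. Members not given in full turned as well, among them jejunal Uhrf1, Ccne1 and Ccne2, at -0.41, -2.97 and -0.86 without sham replicate 1. The value of Ccne1 depends on the pseudocount, because VSG replicate 3 is listed at 0.

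Replicate numbers were also fitted as a block, although each number names different mice in the 2 surgery groups and same-numbered libraries deviated together with correlations of only -0.05 to 0.05. With the replicate block, 0 genes were called in the duodenum and 0 in the jejunum, 1 duodenal and 0 jejunal members had p under 0.05, S-phase and mitotic medians were 0.33 and 0.16 in the duodenum and 0.75 and 0.62 in the jejunum, and duodenal Ccnb1 was at 0.046. The replicate block was not fitted in the ileum, where the groups share no replicate number. Limits of the data are 2 sham mice per segment, 2 against 2 in the ileum, and many zeros there. Levels between segments rest on separate normalization.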
